A study of Mus musculus with 18 samples.

Results

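Senexin B (SnxB) inhibits CDK8 and its paralog CDK19, the kinases of the Mediator kinase module, and its effect on the transcriptome was measured in E0771 cells that already carried the Cdk8 hairpin shCdk8-1. The comparison rests on 6 of the 18 libraries of the series, namely 3 of shCdk8-1 cells given 1 µM SnxB for 48 h and 3 of shCdk8-1 cells given DMSO, chosen by their sample titles. E0771 is a mouse triple-negative breast cancer cell line, and all lines were made by retroviral infection with a short hairpin RNA. The control line (cntrl) carries a hairpin against Renilla luciferase, a second knockdown line (shCdk8-2) carries another Cdk8 hairpin, and both were given DMSO or SnxB in the same way in 3 libraries each. The comparison shows which genes responded to the inhibitor in cells with lowered Cdk8, and whether that response differed from those of cntrl and shCdk8-2 cells.

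Mediator is a large complex that carries signals from transcription factors to RNA polymerase II. Its kinase module holds CDK8 or CDK19, cyclin C, MED12 and MED13, binds Mediator reversibly, and is known both to phosphorylate transcription factors and to act by occupying Mediator. A hairpin lowers the whole protein, whereas an inhibitor leaves the protein in place and blocks the kinase activity, which in a Cdk8 knockdown line is that of CDK19 and the remaining CDK8.

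Total counts of the 6 libraries ran from 16606902 to 20967744 (median 18649744), and 12772 genes passed the filter on low counts. Levels are given in CPM, counts brought to a common library size, here scaled by TMM. Pairs of libraries correlated at 0.9937 to 0.9959 within a group and at 0.9927 to 0.9952 between DMSO and SnxB, over genes on the log2 scale. Mitochondrial genes took 0.448% of the counts in DMSO replicate 2 and 1.02% and 1.56% in the other DMSO libraries, against 0.795% to 1.70% under SnxB. Without DMSO replicate 2 the counts of changed genes below came to 14 and 135. Of the epithelial markers, Krt8 lay at 6.51 to 7.83 CPM, whereas Krt18, Krt5 and Krt19 had 0 counts, which allows up to 0.143 to 0.181 CPM per library. Of the receptors that define triple-negative status, Pgr had 0 counts, Esr1 lay at 0.476 to 1.54 CPM, and Erbb2 was present at 46.4 to 54.1 CPM. The leukocyte markers Cd3e, Ncr1, Adgre1 and Itgam had 0 counts, and Ptprc had at most 1 and Csf1r at most 2. Lyz2 and Cd68, from the same list of myeloid and lymphoid markers, lay at 1.94 to 2.32 and at 0.86 to 2.17 CPM.

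Cdk8, the gene targeted by the hairpin (chr5:146231230-146302874, GRCm38), was measured at 22.2, 18.7 and 23.4 CPM in the DMSO libraries of shCdk8-1 cells and at 24.8, 20.2 and 24.4 CPM under SnxB. The cntrl libraries lay at 54.8 to 58.6 CPM in DMSO and at 53.6 to 57.3 CPM in SnxB, above every shCdk8-1 library. Against cntrl, Cdk8 was lower by a log2 fold change of -1.38 in DMSO (edgeR quasi-likelihood test, adjusted p = 2.6e-12) and of -1.25 in SnxB (edgeR, adjusted p = 1.2e-11). SnxB itself left no change in Cdk8 that passed the test, with a log2 fold change of 0.11 ± 0.08 (SE). The paralog Cdk19 lay at 123 to 129 CPM in DMSO and at 125 to 139 CPM in SnxB, and its log2 fold change was 0.08 ± 0.04. None of the 6 measured members of the module passed the test, and their log2 fold changes ran from -0.29 for Med12 to 0.15 for Ccnc, which encodes cyclin C. Med12 and Med13 were highest in DMSO replicate 2, at 169 and 156 CPM against at most 127 and 126 CPM in any other shCdk8-1 library.

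SnxB changed few genes of shCdk8-1 cells. With both an adjusted p under 0.05 and more than a 2-fold change, 12 genes rose (0.094% of genes tested) and 2 fell (0.0157%), together 0.11%. Of these 14 genes 3, Acta2, Myl9 and Actg2, belong to the list of smooth muscle genes and Tnfsf10 to that of ligands read by NK and T cells, while the rest are in none of the lists. At the adjusted p alone 117 genes rose (0.916%) and 72 fell (0.564%), together 1.48%. The DMSO and SnxB libraries did not overlap for any of these 189 genes, as was also true of 16.1% of all genes tested. Most of the changes were small: 159 of the 189 genes changed less than 1.5-fold and their median size was 0.31 on the log2 scale, against 0.08 over all genes tested. The plot of mean level against log2 fold change shows the raised genes above 2-fold at low to intermediate levels, with Acta2 as the abundant exception.

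**Figure D1:**
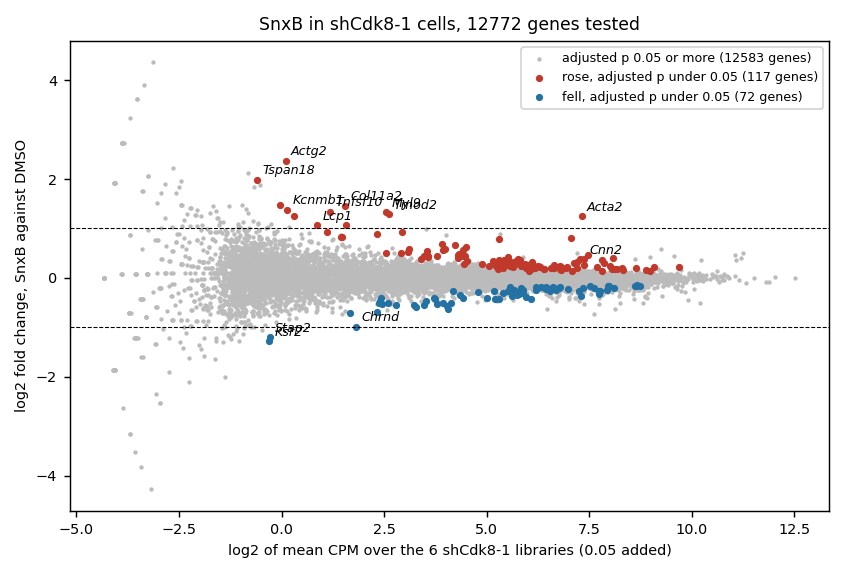
Each of the 12772 genes tested is drawn at the log2 of its mean CPM over the 6 shCdk8-1 libraries (with 0.05 added) and its fitted log2 fold change in SnxB against DMSO, with 117 genes that rose in red, 72 that fell in blue and the others in grey. Dashed lines mark a 2-fold change, which 12 red and 2 blue genes pass.

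The number of genes depended on single libraries and on which libraries shared the estimate of spread. The count of genes above 2-fold was 14 with all libraries and 8 without DMSO replicate 1. The 189 became 112 without DMSO replicate 1, 123 without SnxB replicate 2, 115 without SnxB replicate 3 and 443 without SnxB replicate 1. Fitted to the 6 shCdk8-1 libraries alone, 7 genes passed both thresholds and 50 the adjusted p, all of them among the 14 and the 189. These 7 were Acta2, Myl9, Actg2, Tmod2, Col11a2, Tnfsf10 and Ppp1r16b.

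Smooth muscle genes made up the list with the most members past the test. These genes encode the actin, myosin and tropomyosin of contractile fibres, and many are known targets of serum response factor (SRF), which binds the CArG box, a DNA element written CCNNNNNNGG with A or T at the central 6 positions. Of 14 measured members 6 rose and none fell, namely Acta2, Myl9, Actg2, Tpm1, Srf and Tpm2, beside 1.48% of all genes tested. The list's median log2 fold change was 0.22, against 0.01 over all genes. The list was chosen with earlier results of these libraries known, so its direction is no independent evidence. In bulk RNA, more expressing cells and more RNA per cell cannot be told apart.

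The promoters of Acta2 and Myl9 are shown first because these genes rose together with a small error. Both are given 5′ to 3′ on the strand of the gene, from 250 bases before to 50 bases after the transcription start (RefSeq, GRCm38.p6), in lower case. Capitals mark a CArG box in Myl9 (chr2:156775214-156775513, plus strand), which begins 161 bases upstream of the start. A second stretch of Myl9, 99 bases upstream, has 1 G or C among the central 6 positions and is left in lower case. In Acta2 (chr19:34255324-34255623, minus strand) they mark the 2 stretches that have 1 G or C among the central 6 positions, 84 and 34 bases upstream.
Myl9: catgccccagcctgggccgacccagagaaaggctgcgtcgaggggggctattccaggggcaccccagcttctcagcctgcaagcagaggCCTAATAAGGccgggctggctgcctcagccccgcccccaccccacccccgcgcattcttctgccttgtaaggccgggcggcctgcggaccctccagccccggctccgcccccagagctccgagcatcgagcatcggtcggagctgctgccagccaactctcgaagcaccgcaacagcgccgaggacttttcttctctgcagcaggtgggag
Acta2: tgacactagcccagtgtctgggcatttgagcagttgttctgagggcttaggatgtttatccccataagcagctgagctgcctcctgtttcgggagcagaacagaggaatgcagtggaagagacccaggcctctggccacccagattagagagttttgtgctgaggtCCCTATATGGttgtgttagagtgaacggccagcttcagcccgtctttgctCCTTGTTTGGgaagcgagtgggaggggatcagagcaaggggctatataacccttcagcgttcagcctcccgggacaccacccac

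Acta2, smooth muscle actin, was measured at 94.6, 92.4 and 96.8 CPM in the 3 DMSO libraries and at 208, 236 and 232 CPM in the 3 SnxB libraries. Every SnxB library held more than 2 times the level of any DMSO library, and the log2 fold change was 1.25 ± 0.05 (edgeR, adjusted p = 1.4e-12). Myl9, the regulatory light chain of smooth muscle myosin, went from 3.15, 2.96 and 3.77 CPM to 7.42, 8.56 and 8.89 CPM, a log2 fold change of 1.33 ± 0.13 (edgeR, adjusted p = 8.5e-06). Actg2, the enteric smooth muscle actin, was near the limit of detection in DMSO, with 9, 8 and 2 counts, and had 31, 30 and 32 counts under SnxB. Its log2 fold change of 2.37 ± 0.35 was the largest among the genes that passed, and the SnxB libraries were alike while the DMSO libraries varied. The smaller rises were those of abundant genes: Tpm1 and Tpm2, tropomyosins that lie along actin filaments, had log2 fold changes of 0.22 ± 0.03 and 0.21 ± 0.04, and Srf itself one of 0.22 ± 0.04. The 3 DMSO libraries of Tpm1 lay at 494 to 511 CPM and the SnxB libraries at 569 to 596 CPM, without overlap. Of the 6 genes, Tpm2 and Srf each lost the adjusted p in 2 of 6 fits that left out 1 library, and the others kept it in all 6.

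The other 8 measured members did not pass the test. Cald1, Smtn and Vcl, which bind actin or its anchors, had log2 fold changes of 0.09, 0.06 and 0.15, and Flna one of -0.04. Mylk, the kinase of the myosin light chain, had a log2 fold change of 0.21 ± 0.14, its libraries overlapped, and the value came to 0.03 without DMSO replicate 3. Lmod1 and Synpo2 had at most 16 counts in any shCdk8-1 library. Des, the muscle intermediate filament, had a log2 fold change of -0.04 ± 0.28.

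The smooth muscle list holds none of the next 5 genes, which were among the 15 largest rises. Tmod2, a tropomodulin that caps actin filaments, was at 3.10, 4.10 and 3.36 CPM in DMSO and at 7.96, 9.22 and 8.57 CPM in SnxB (log2 fold change 1.29 ± 0.13, edgeR adjusted p = 2.2e-05). Kcnmb1, the smooth muscle subunit of a calcium-gated potassium channel, had 11, 10 and 13 counts in DMSO and 37, 24 and 22 under SnxB, a log2 fold change of 1.38 ± 0.26. The actin bundler Lcp1 (1.07), the unconventional myosin Myo18b (0.93) and the cardiac troponin Tnnt2 (0.83) followed on the log2 scale. In each of these genes every SnxB library lay above every DMSO library, as the choice of the 15 largest rises required. Lcp1 went from 0.611, 1.48 and 1.39 CPM to 3.12, 2.20 and 1.85 CPM, and its adjusted p was no longer under 0.05 in 2 of 6 fits that each left out 1 library, against 4 of 6 for Tnnt2 and none for Tmod2, Kcnmb1 and Myo18b.

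The remaining large rises were of mixed function. Col11a2, a chain of a fibrillar cartilage collagen, had 30, 20 and 39 counts in DMSO and 84, 61 and 84 under SnxB, a log2 fold change of 1.46 ± 0.22 (edgeR, adjusted p = 0.00089). Tnfsf10, which encodes the death ligand TRAIL, rose from 1.41, 1.25 and 1.08 CPM to 2.85, 2.97 and 3.70 CPM (log2 fold change 1.34 ± 0.24, edgeR adjusted p = 0.0047). Ppp1r16b, a regulatory subunit of protein phosphatase 1, rose from 1.74, 1.99 and 1.91 CPM to 3.60, 4.28 and 3.91 CPM. All 3 genes lay under 5 CPM, and their groups did not overlap, which the choice of the 15 largest rises required. Smaller rises came from the adhesion molecule Ceacam1 (1.25), Lrrn3 (0.93), the lysophospholipase Enpp2 (0.89) and the milk fat protein Btn1a1 (0.83). Ceacam1 and Btn1a1 each lost the adjusted p in 4 of 6 fits that left out 1 library. The 2 low genes above 2-fold, chosen after their values were seen, were Tspan18, with 3, 7 and 4 counts in DMSO and 22, 15 and 16 in SnxB, and the desmosomal Pkp1, with 10, 10 and 8 counts in DMSO and 16, 27 and 30 in SnxB. Tspan18 lost the adjusted p in 5 and Pkp1 in 4 of the 6 such fits.

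The largest falls were smaller than the largest rises and of mixed function. Over all genes past the adjusted p the median sizes were similar, 0.313 for rises and 0.297 for falls on the log2 scale. Chrnd, a subunit of the muscle acetylcholine receptor, fell the most among genes of at least 1 CPM, from 4.98, 3.53 and 5.37 CPM to 2.64, 1.61 and 2.75 CPM (log2 fold change -0.98 ± 0.19, edgeR adjusted p = 0.0077). Another subunit of that receptor, Chrnb1, had a log2 fold change of -0.52 ± 0.11. The transcription factor Klf2 went from 19.8, 17.4 and 23 CPM to 11.0, 13.7 and 14.6 CPM, a log2 fold change of -0.62 ± 0.12. The SnxB libraries lay below every DMSO library for these 3 genes, as the choice of the 15 largest falls required. The integrin beta chains Itgb2 (-0.70) and Itgb7 (-0.52) fell on the log2 scale, as did the metalloproteases Mmp28 (-0.54) and Mmp19 (-0.50). The other genes among the 15 largest falls were Scel, Gm28875, Apobr, Wfdc2, Ablim1, Fgf11, Lipn and Gprc5a, with log2 fold changes of -0.70 to -0.51. Gm28875, a long noncoding RNA, was the one gene of the 189 that does not code for protein. The 2 falls above 2-fold were of low genes and were chosen after their values were seen: the scaffold Ksr2 had 25, 14 and 24 counts in DMSO and 7, 8 and 9 in SnxB, and the adaptor Stap2 had 21, 20 and 21 counts in DMSO and 11, 9 and 5 in SnxB. Many of the falls lost the adjusted p when 1 library was left out. Of the 6 such fits, Mmp19 lost it in 6, Scel and Stap2 in 5, and Chrnb1 and Wfdc2 in 4. Itgb2, Mmp28 and Fgf11 lost it in 3, Chrnd, Ksr2 and Lipn in 2, and Klf2 and Ablim1 in 1. Itgb7, Apobr, Gm28875 and Gprc5a kept it in all 6.

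**Figure D2:**
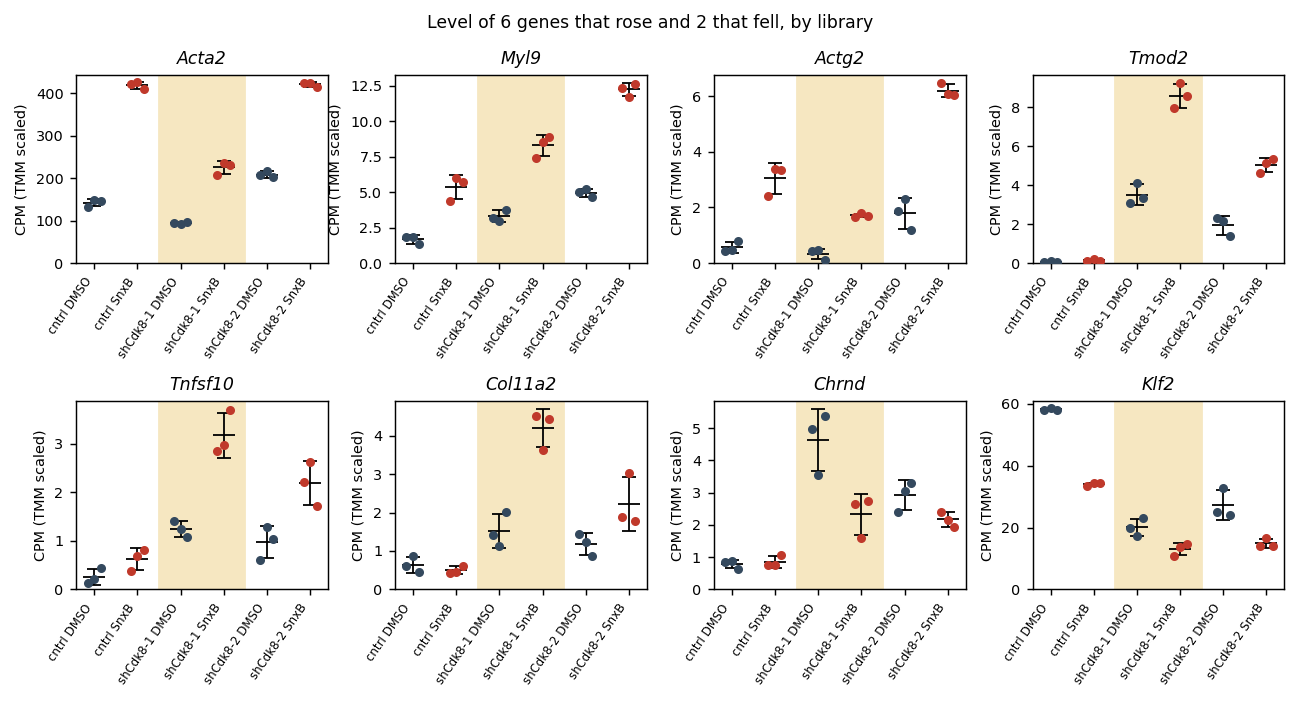
Points are the TMM-scaled CPM of single libraries in the 6 groups (DMSO dark, SnxB red, shCdk8-1 cells shaded), and bars give mean ± SD over 3 libraries. In shCdk8-1 cells the SnxB libraries lay above the DMSO libraries for Acta2, Myl9, Actg2, Tmod2, Tnfsf10 and Col11a2 and below them for Chrnd and Klf2, while Tmod2 was at most 0.232 CPM in cntrl cells.

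The promoters of the raised genes were searched for the CArG box, whose pattern reads alike on both strands, within 300 bases around each listed transcription start. A gene with several listed starts was counted once, as holding the element if any of its windows did. Of the 117 raised genes 88 had a promoter in the RefSeq table, and 7 of these (7.95%) held a CArG box. Among all 9418 tested genes with a promoter the share was 1.5% (141 genes), and among the 55 lowered genes with one it was 0. When 1 G or C was allowed among the central 6 positions, 21.6% of raised, 10.9% of lowered and 10.6% of all tested genes held the element. The raised genes with the exact element were Myl9, Cbr2, Cnn2, Lima1, Rnd3, Rsu1 and Srf. A match describes letters in the window and does not show that SRF binds there, and Actg2 had no entry in the table.

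The sites of the other 6 genes are shown because they hold the exact element. Each run holds 30 bases, 5′ to 3′ on the strand of the gene, with the CArG box in capitals. Srf holds 2 sites (chr17:46556225-46556254 and chr17:46556205-46556234, minus strand), 82 and 62 bases upstream of its start. The others lie at chr10:79988534-79988563 (Cnn2, plus strand), chr15:99820177-99820206 (Lima1, minus), chr2:51149192-51149221 (Rnd3, minus), chr2:13271368-13271397 (Rsu1, minus) and chr11:120732110-120732139 (Cbr2, minus). The element of Rsu1 begins 29 bases downstream of the start, and those of the other genes lie upstream. For Lima1 alone the bases after the start used were not found in a GENCODE M21 transcript of the gene.
Srf, first site: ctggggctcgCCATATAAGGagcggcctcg
Srf, second site: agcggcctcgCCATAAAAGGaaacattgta
Cnn2: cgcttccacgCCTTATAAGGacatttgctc
Lima1: ctcactttgtCCTTATAAGGctatcctgtt
Rnd3: ctcccaggctCCATAAAAGGggaggaggcg
Rsu1: aaacagttctCCTAATTTGGgaagtgtcag
Cbr2: cagttggatgCCATATTTGGggagtgagag

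These 6 genes were taken from the raised genes, so that their rise is fixed by that choice and is given as a description. Cnn2, a calponin that binds actin, was at 144, 144 and 149 CPM in DMSO and at 186, 194 and 187 CPM in SnxB (log2 fold change 0.38 ± 0.03). Lima1, which crosslinks actin filaments, was at 122 to 130 CPM in DMSO and at 153 to 155 CPM in SnxB. Rnd3, a small GTPase that opposes stress fibres, and Rsu1, an adhesion protein, had log2 fold changes of 0.22 ± 0.05 and 0.21 ± 0.03, and Rnd3 lost the adjusted p in 4 of 6 fits that left out 1 library. Cbr2, a carbonyl reductase, was at 48.6, 49.5 and 50.3 CPM in DMSO and at 60.7, 67.8 and 61.4 CPM in SnxB. Of the 12 further raised genes that matched with 1 G or C in the centre, the largest log2 fold changes after that of Acta2 were those of Serpinf1 (0.63), Sgk1 (0.45) and Pdlim4 (0.45). Sgk1, a serum-induced kinase, rose from 144 to 152 CPM in DMSO to 197 to 209 CPM in SnxB, without overlap, and Dstn, which severs actin filaments, had a log2 fold change of 0.36 ± 0.05. These genes were named after their values were seen.

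Among the other gene lists, glycolysis and hypoxia had 4 of 20 members that rose, beside 0.916% of all genes tested, and none that fell. Ndrg1, a hypoxia-induced gene, went from 135, 133 and 127 CPM to 159, 173 and 159 CPM (log2 fold change 0.31 ± 0.04, edgeR adjusted p = 0.00033). The prolyl hydroxylase P4ha2 (0.16), the phosphofructokinase Pfkp (0.14) and the peptide hormone Adm (0.26) followed on the log2 scale. The list's median of 0.03 lay near that of all genes, 0.01, and Adm was no longer past the threshold with library totals or DESeq2's size factors in place of TMM. Of 6 fits that each left out 1 library, Adm lost the adjusted p in 5, P4ha2 in 4 and Pfkp in 3, and Ndrg1 in none. The cyclin-dependent kinase inhibitor Cdkn1a and the stress gene Gadd45a were the 2 of 17 members of the CDK inhibitor and p53 list that rose, again beside 0.916% of all genes. Cdkn1a lay at 54.5 to 58.0 CPM in DMSO and at 64.8 to 69.8 CPM in SnxB (log2 fold change 0.27 ± 0.05, edgeR adjusted p = 0.0036). Of 26 genes of the cell cycle and E2F list, Ccne1, cyclin E1, rose (0.20) and none fell. Gadd45a and Ccne1 each lost the adjusted p in 4 of the 6 fits, and Cdkn1a in none.

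Genes that report on signalling moved in both directions. Of 20 AP-1 and immediate early genes, Ier3 (0.19) and Dusp6 (0.25) rose on the log2 scale, and Jund (-0.43) and Fosl2 (-0.21), both subunits of AP-1, fell, beside 1.48% of all genes that passed in either direction. Jund kept the adjusted p in all 6 fits that left out 1 library, whereas Dusp6 and Fosl2 lost it in 4 and Ier3 in 3. Jund was at 75.8, 74.5 and 84.4 CPM in DMSO and at 58.0 ± 1.7 CPM (SD, n = 3) in SnxB, without overlap. Of 14 TGF-beta ligands and receptors the ligand Tgfb2 rose, from 9.26, 10.6 and 10.6 CPM to 12.8, 14.9 and 13.3 CPM. The SnxB libraries of Tgfb2 lay above every DMSO library, and its adjusted p was lost in 2 of the 6 fits. None of the 10 Wnt targets, 14 genes of the JAK-STAT list, 14 NF-kB genes, 13 EMT genes, 15 stress response genes, 10 targets of the aryl hydrocarbon receptor and NRF2 or 25 core Mediator subunits passed the test.

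In the lists of matrix and surface genes, 1 to 3 members passed where any did, beside 1.48% of all genes tested. Collagen Col1a1 rose (0.48) and Col18a1 fell (-0.26) among 16 collagens on the log2 scale, Spp1 (osteopontin) rose (0.24) and the protease inhibitor Timp2 fell (-0.17) among 19 matrix genes, and Itgb7 was the 1 of 16 integrins and laminins that fell. The chemokine Ccl7 was the 1 of 10 chemokines and growth factors that rose. Of 13 ligands read by NK and T cells Tnfsf10 rose, whereas Pvr and Lgals9 fell by 0.25 and 0.19 on the log2 scale. Pvr, a ligand of both activating and inhibitory NK receptors, was at 115, 109 and 114 CPM in DMSO and at 101, 89.8 and 93.2 CPM in SnxB. None of the 16 genes of MHC class I presentation passed: H2-K1 and H2-D1 had log2 fold changes of 0.02 ± 0.05 and 0.03 ± 0.03. Of 29 interferon-stimulated genes, Ddx58, the RNA sensor RIG-I, fell (-0.34, edgeR adjusted p = 0.0498), and the list's median was -0.14. That fall was lost in 5 of 6 fits that left out 1 library, as was the rise of Spp1. Col1a1, Ccl7 and Lgals9 lost the adjusted p in 4 of these fits and Timp2 in 2, while Col18a1, Itgb7, Tnfsf10 and Pvr kept it in all 6.

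**Figure D3:**
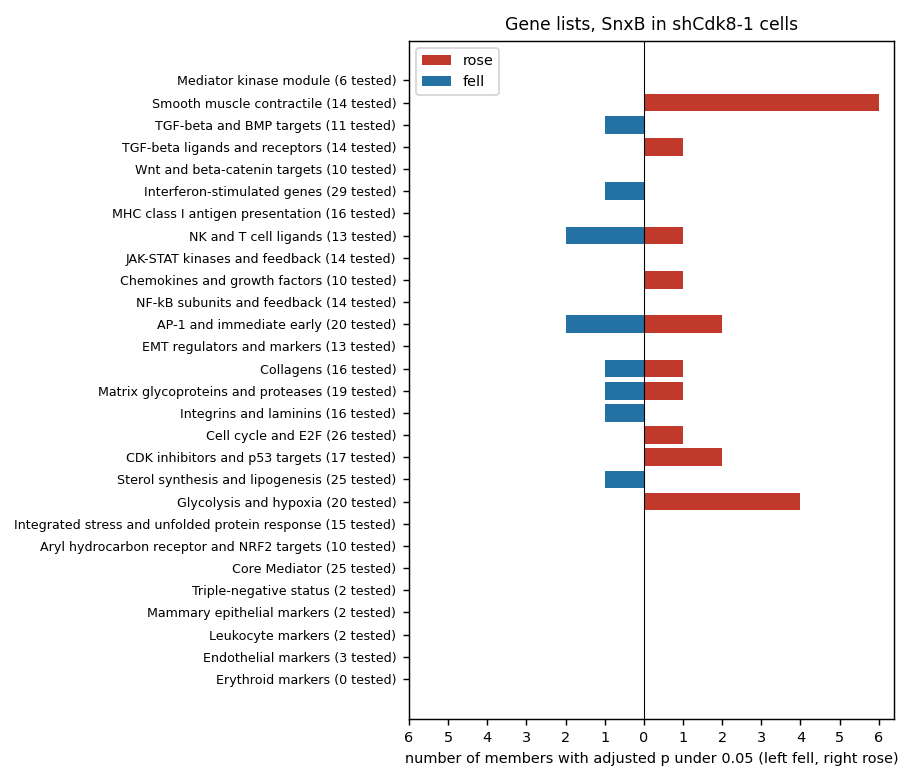
For each gene list the bars count the members with an adjusted p under 0.05 that rose (right, red) or fell (left, blue) under SnxB in shCdk8-1 cells, with the number of members tested in brackets. The smooth muscle list has 6 that rose and the glycolysis and hypoxia list 4, and no list has more than 2 that fell.

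Of the further genes that the study follows, none passed in this comparison. Raet1e and Raet1d, of the RAE1 ligands, had log2 fold changes of -0.29 ± 0.08 and -0.26 ± 0.07 (edgeR, adjusted p = 0.080 and 0.090). Cd274, which encodes PD-L1, was at 3.29, 2.51 and 2.27 CPM in DMSO and at 1.94, 1.90 and 2.06 CPM in SnxB. The groups did not overlap, but the log2 fold change of -0.46 ± 0.17 had an adjusted p of 0.23 (edgeR). The log2 fold changes of Mmp9, Ccl2 and Icam1 were 0.18 ± 0.29, 0.14 ± 0.09 and 0.12 ± 0.15, and their libraries overlapped. Snai2 had at most 3 counts in each of the 6 libraries, so that a change was not detectable at this depth. Of the endothelial markers none of the 3 tested passed (lowest adjusted p 0.18 by edgeR), although their summed level was 15.2 to 17.2 CPM in DMSO and 18.2 to 19.8 CPM in SnxB, most of it Pecam1.

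The changes were set beside those of SnxB in the other lines, whose libraries are separate from these. All lines shared a single estimate of spread per gene, so passing the test in different lines is not independent. In shCdk8-2 cells all 189 genes moved in the same direction as in shCdk8-1 cells, as did 64.2% of all genes tested, and 114 (60.3%) also passed the adjusted p there, where 2.05% of all genes tested did. In cntrl cells 173 of the 189 (91.5%) had the same direction, against 56.6% of all genes, and likewise 114 (60.3%) passed in it, where 5.54% of all genes tested passed. The log2 fold changes of the 189 genes correlated at r = 0.93 with those in shCdk8-2 cells and at r = 0.75 with those in cntrl cells, against 0.21 and 0.16 over all genes. Part of this comes from pooling raised with lowered genes. Within the raised genes r was 0.87 for shCdk8-2 and 0.53 for cntrl cells, and within the lowered genes 0.66 and 0.53. These are correlations over genes, which are not independent replicates, and carry no test. Passing in all 3 lines in the same direction were 86 genes, 56 that rose and 30 that fell. Acta2, Myl9, Actg2, Kcnmb1, Lcp1, Myo18b and Enpp2 were the 7 of the 15 largest rises that also passed in cntrl cells, and 13 of the 15 largest falls did.

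**Figure D4:**
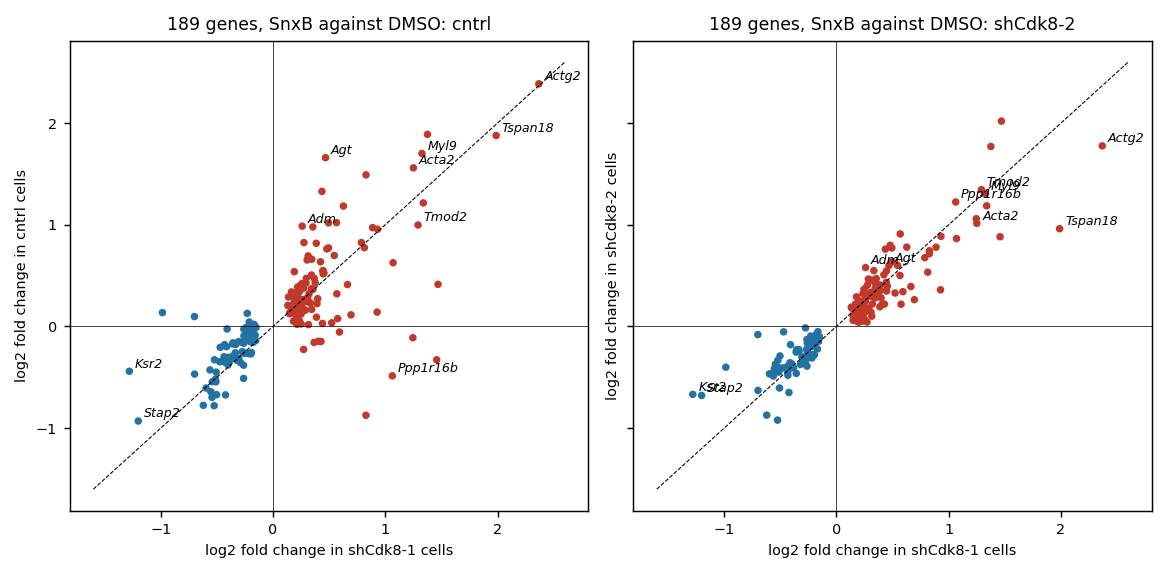
Each of the 189 genes past the adjusted p in shCdk8-1 cells is drawn at its log2 fold change in SnxB against DMSO there (horizontal) and in cntrl (left) or shCdk8-2 cells (right), with raised genes in red, lowered genes in blue and a dashed line of equal change. All 189 points lie in the same-sign quadrants for shCdk8-2 and 173 for cntrl cells.

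The difference between the responses of shCdk8-1 and shCdk8-2 cells was tested directly, and no gene passed. At an unadjusted p under 0.05 edgeR found 431 genes (3.37%), a smaller share than the 0.05 this threshold passes when no gene differs. The lowest adjusted p by edgeR was 0.9999, and DESeq2 found 0 genes at its adjusted p. The log2 fold change of Acta2, for example, was 1.25 ± 0.05 with the one hairpin and 1.01 ± 0.05 with the other, and that of Actg2 was 2.37 ± 0.35 and 1.78 ± 0.19. A missing call does not show that the responses are equal: the difference for Actg2 was 0.59 ± 0.43.

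Against cntrl cells the response differed for 39 genes at the adjusted p (0.305% of genes tested), 9 with a more positive (0.0705%) and 30 with a more negative log2 fold change (0.235%) in shCdk8-1 cells. The 39 became 13 without cntrl DMSO replicate 2, and also 13 when only the groups compared were fitted. For 5 of them, Cd244a, Atp6v0a4, Agt, Thbs2 and Ppp1r16b, the responses differed more than 2-fold (0.0391%). Genes past the threshold in shCdk8-1 cells alone were 46, but the difference from cntrl cells passed for 2 of these, Tgfb2 and Lrig1, and that from shCdk8-2 cells for none. Lrig1, a feedback regulator of growth factor receptors named after its values were seen, had log2 fold changes of -0.23 ± 0.05 in shCdk8-1 and 0.13 ± 0.04 in cntrl cells. Leaving out 1 library at a time, the difference was lost in 10 of 12 fits for Tgfb2 and in 3 of 12 for Lrig1.

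Genes with the more negative response in shCdk8-1 cells formed the larger group, and most of those described here rose more in cntrl cells. The chemokine Ccl7 went from 11.4, 12.5 and 11.5 CPM to 14.7, 17.6 and 15.7 CPM in shCdk8-1 cells and from 36.3, 42.9 and 44.1 CPM to 92.1, 111 and 107 CPM in cntrl cells. On the log2 scale it changed by 0.44 ± 0.10 against 1.33 ± 0.08, a difference of -0.89 ± 0.13 (edgeR, adjusted p = 0.0030). Adm, the hypoxia-induced peptide hormone, rose by 0.26 ± 0.06 in shCdk8-1 and by 0.99 ± 0.06 in cntrl cells on the log2 scale, from similar levels of 36.7 ± 1.5 and 42.2 ± 1.6 CPM (SD, n = 3) in DMSO. Agt, angiotensinogen, and Thbs2, a matrix thrombospondin, started from unlike levels. Agt was at 16.6 ± 0.92 CPM in DMSO in shCdk8-1 and at 1.20 ± 0.33 CPM in cntrl cells. SnxB changed it by 0.47 and by 1.66 on the log2 scale. Thbs2 lay at 72.1, 77.8 and 72.5 CPM in DMSO and 71.7, 63.0 and 68.2 CPM in SnxB in shCdk8-1 cells, with no change past the test, but at 2.19 ± 0.61 CPM in DMSO and 4.62 ± 0.74 CPM in SnxB in cntrl cells. Acta2 rose in both, by 1.25 and 1.56 on the log2 scale, and the difference of -0.31 ± 0.06 had an adjusted p of 0.044 (edgeR) that was lost in 11 of 12 fits that each left out 1 library.

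Genes of the opposite kind rose, or fell less, in shCdk8-1 cells. Cdkn1a is the clearest case at high level: it rose by 0.27 ± 0.05 in shCdk8-1 cells and had a log2 fold change of -0.23 ± 0.05 in cntrl cells, where it lay at 42.4 to 46.6 CPM in DMSO and 36.4 to 39.7 CPM in SnxB. The difference was 0.50 ± 0.07 (edgeR, adjusted p = 0.0030). Cdkn1a was the 1 gene of the 189 that passed the adjusted p in the opposite direction in cntrl cells. Among the named genes Ppp1r16b had the largest positive difference, 1.55 ± 0.25 (edgeR, adjusted p = 0.0087), with 4.19, 3.52 and 2.74 CPM in DMSO and 2.41, 2.41 and 2.56 CPM in SnxB in cntrl cells. For the ligand Tgfb2 the log2 fold change was 0.43 in shCdk8-1 and -0.15 in cntrl cells. Cda (cytidine deaminase), Cltb (a clathrin light chain), Tmem37 and the muscle RING protein Trim54 did not pass in shCdk8-1 cells, but in cntrl cells they fell by 0.97, 0.36, 0.60 and 0.79 on the log2 scale.

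In shCdk8-2 cells the log2 fold changes of most of these genes lay between those of the other lines or near those of shCdk8-1 cells. Ccl7 had 0.76, Adm 0.58, Cbr2 0.47 and Cdkn1a 0.04 on the log2 scale, each between the values of shCdk8-1 and cntrl cells. Acta2, at 1.01, lay below both. None of these differences between the 2 knockdown lines passed the test.

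**Figure D5:**
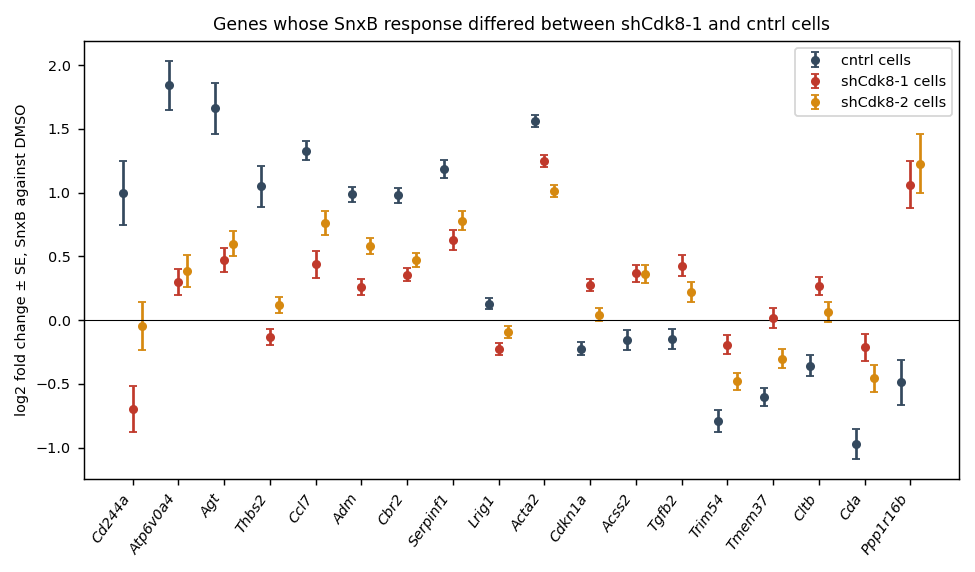
Points give the fitted log2 fold change in SnxB against DMSO with its SE in cntrl, shCdk8-1 and shCdk8-2 cells for the 18 named genes whose response differed between shCdk8-1 and cntrl cells at an adjusted p under 0.05. Genes are ordered by that difference, from Cd244a (-1.69) to Ppp1r16b (1.55).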

How the data were processed

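The authors sequenced 50 bp single-end reads of total RNA, trimmed them with Trimmomatic, mapped them with STAR to GENCODE M13 (GRCm38) and counted exons per gene with featureCounts 1.5.1, using strand, per the file headers and the methods. The deposited values are raw counts per gene and library, without pooling or normalization. The 18 libraries held 16452260 to 22664693 counts. Files list 50686 genes, of which 50462 had a symbol in GENCODE M21. Counts were fitted with edgeR 4.0.16 (R 4.3.3), with all 18 libraries in 6 groups, filterByExpr (minimum count 10, minimum total 15), TMM and glmQLFTest, Benjamini-Hochberg adjusted over 12772 genes. SEs were derived from the F statistic, and "rose" and "fell" refer to an adjusted p under 0.05.

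The labels do not say whether the 3 libraries of a group are separate cultures, so p-values measure the spread between these libraries, which may be technical. Intervals from 3 counts cover counting error only. For shCdk8-2 cells the file headers number the replicates 2, 3 and 3, and the labels were used. The gene lists and the rule for named genes were chosen with earlier results of these data known. The rule takes the kinase module, the 15 largest rises and falls with at least 1 CPM and no overlap, the 5 largest differences each way from another line, up to 4 members of a list by adjusted p, and genes the study follows. Genes with a CArG box and those above 2-fold under 1 CPM, and Lrig1, were added after their values were seen. The model was tested on simulated data for SnxB in shCdk8-1 cells (12638 genes). It recovered 90 of 100 genes changed 1.5-fold and 100 of 100 changed 3-fold. For the difference from cntrl cells it recovered 75 and 100, and each test had 4 false calls at the adjusted p. Counts were drawn with the model's own spread, and only genes over 1 CPM were changed. Changes under 1.5-fold, which most genes past the adjusted p had, and genes under 1 CPM were not covered. The alternatives were DESeq2 1.42.0, glmTreat, other scalings, filters and thresholds, protein-coding genes, fewer libraries and a replicate block. Some genes are not reported here.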

Additional observations from a re-analysis of the deposited data

Results flagged for a closer look

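For 18 named genes the response to SnxB differed between shCdk8-1 and cntrl cells by the test of the difference itself (edgeR, adjusted p under 0.05). The difference in log2 fold change, shCdk8-1 minus cntrl, was negative for Cd244a (-1.69), Atp6v0a4 (-1.54), Agt (-1.19), Thbs2 (-1.18), Ccl7 (-0.89), Adm (-0.73), Cbr2 (-0.62), Serpinf1 (-0.56), Lrig1 (-0.36) and Acta2 (-0.31). It was positive for Cdkn1a (0.50), Acss2 (0.52), Tgfb2 (0.58), Trim54 (0.60), Tmem37 (0.62), Cltb (0.63), Cda (0.76) and Ppp1r16b (1.55).

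Several of the genes with a negative difference had much higher levels in shCdk8-1 than in cntrl cells in DMSO. Atp6v0a4, a subunit of the proton pump, was at 6.97 ± 0.76 CPM (SD, n = 3) against 0.761 ± 0.022 CPM, and its means under SnxB were 8.54 and 2.76 CPM. Cd244a, an immune cell receptor, was at 2.86 and 0.683 CPM in DMSO and at 1.77 and 1.39 CPM under SnxB. Of Cd244a, whose own change in shCdk8-1 cells did not pass (adjusted p 0.062 by edgeR), the difference was lost in 3 of 12 fits that each left out 1 library, and that of Agt in 4 of 12. The difference was lost in 11 such fits for Acta2 and Cda, 10 for Tgfb2, 7 for Serpinf1 and Trim54, 6 for Acss2, 3 for Lrig1 and 2 for Cltb, and in none for Ccl7, Adm, Cbr2, Thbs2, Cdkn1a, Tmem37, Atp6v0a4 and Ppp1r16b. The part of the starting level in these differences was not tested.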

How the results depend on the processing

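Counts of genes past both thresholds are given for SnxB in shCdk8-1, in cntrl and in shCdk8-2 cells, and for the differences from cntrl and from shCdk8-2 cells. The counts at the adjusted p alone were added after seeing the data. No named result past its threshold changed direction under the alternatives run. With DESeq2, 10 of the 14 genes and 174 of the 189 were found again, and the difference from cntrl cells passed for 62 genes at the adjusted p. With DESeq2's size factors Adm, Spp1, Ddx58 and Tmem123 no longer had an adjusted p under 0.05. A test against a 2-fold change (glmTreat) left 1 gene in shCdk8-1, 3 in cntrl and 0 in shCdk8-2 cells, and 0 for the difference from cntrl. Without a filter 24 genes passed in shCdk8-1 and 28 in shCdk8-2 cells, 15 differed from cntrl and 9 from shCdk8-2, and the adjusted p alone gave 567 (178 that rose, 389 that fell) and 389 for the difference from cntrl. At an adjusted p under 0.01 the counts were 8 in shCdk8-1, 25 in cntrl and 10 in shCdk8-2 cells and 3 for the difference from cntrl, and without the fold threshold 95 and 10. With no fold threshold at 0.05 they were 189, 708, 262 and 39. With only the groups compared they were 7 and 50 in shCdk8-1 cells and 3 and 13 for the difference from cntrl, with 11943 genes tested in the former. Apart from the counting of fewer genes or libraries, the cause was not tested.

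The groups share replicate numbers, but the main model did not pair libraries by them. Whether the numbers mark pairs was not settled. Deviations of same-numbered DMSO and SnxB libraries correlated at 0.055 to 0.085 in shCdk8-1 cells, against a mean of -0.036 for unlike numbers. In the other lines same-numbered libraries correlated at -0.16 to 0.043. Deviations were taken from the mean of each group, so positive values for like numbers bring negative ones for unlike numbers. With a replicate block 13 genes passed in shCdk8-1 cells, 12 of them among the 14, and 176 at the adjusted p alone. With the block and only the groups compared, 3 (Acta2, Myl9 and Tmod2) and 6 passed there, 2 and 11 differed from cntrl, and 10 passed in shCdk8-2 cells.

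Leaving out 1 library at a time gave 8 to 16 genes in shCdk8-1 cells, and at the adjusted p alone 112 (without DMSO replicate 1) to 443 (without SnxB replicate 1). The difference from cntrl gave 3 to 5, and 13 (without cntrl DMSO replicate 2) to 36 (without shCdk8-1 SnxB replicate 1), and SnxB in shCdk8-2 cells 9 to 19. Genes with under 10 counts per library, such as Actg2 in DMSO, are limited by counting error.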
